A study of Mus musculus with 40 samples.

Results

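Immediate-early genes are switched on within minutes when a cell receives a growth factor, a stress signal or mechanical damage, without needing newly made protein. Kinase pathways pass the signal to factors already bound at their promoters, and the mRNAs are then degraded quickly, so that their level follows recent events. In liver they are known to respond to partial hepatectomy, to refeeding and to the handling of the tissue itself, which is why they are looked at here mouse by mouse. The members were the rows of the raw count table with the symbols Fos, Jun, Junb, Egr1, Ier2, Ier3, Atf3, Btg2 and Zfp36. All 9 were among the 32544 gene rows, and all 9 passed the filter on low counts that left 12616 genes.

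Livers were taken on postnatal day 64 from male C57BL/6 mice raised germ-free, that is, without any microbes. For 6 weeks the mice had received delta-valerobetaine (VB), a betaine metabolite that gut bacteria make, or vehicle. The groups, of 5 mice each, were Western diet VB, Western diet vehicle, control diet VB and control diet vehicle. The library names call the vehicle PBS on the control diet and name no vehicle on the Western diet. They take a different form on each diet, so whatever this difference in naming stands for and diet cannot be told apart. Livers were flash frozen, and the labels do not give the hour or order of collection. Levels are given as CPM, read counts scaled to a common library size (TMM scaling), with the 2 lanes of each mouse summed. In Western diet VB mouse 1, 1 of the lane files bears a vehicle treatment label while its title and the other lane say VB, and it was kept as VB.

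Total counts ran from 16315342 to 24566686 per mouse. The 6 hepatocyte markers summed to between 34522 and 55636 CPM over all mice, against 118 to 396 CPM for the 8 Kupffer cell markers and 0.430 to 2.47 CPM for the 6 neutrophil markers, of which 2 passed the filter. The 4 adipocyte markers, of which only 1 (Cfd) passed the filter, summed to 5.09 to 44.3 CPM in Western diet VB mice and 30.3 to 266 CPM in Western diet vehicle mice, against at most 2.86 CPM on the control diet. Western diet vehicle mouse 4 had 4.62% of its counts in mitochondrial genes, the highest share of any mouse. A score of the circadian clock genes (the first principal component of their log2 CPM, without Per1 and Bhlhe40) averaged 0.196 in Western diet VB mice, 1.30 in Western diet vehicle mice, -0.182 in control diet VB mice and -1.31 in control diet vehicle mice. The clock score was tried as a covariate, and the part of the adipocyte markers and of the library names in the values that follow was not tested. In whole liver, a change in the number of cells that carry an mRNA and a change in its amount per cell cannot be told apart.

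Per kilobase of exon, the levels of the members ran in this order. Ier2, a nuclear protein induced by growth factors, averaged 20.6 CPM per kb over the 20 mice, Zfp36 (tristetraprolin, which binds AU-rich mRNAs and speeds their decay) 15.3 CPM per kb, and Junb, a subunit of the AP-1 transcription factor, 12.7 CPM per kb. Jun, another AP-1 subunit, stood at 5.41 CPM per kb, Btg2, an antiproliferative partner of the deadenylase complex, at 4.66 CPM per kb, and Egr1, a zinc finger transcription factor, at 4.56 CPM per kb. The lowest were Fos, the classical partner of Jun in AP-1, at 0.643 CPM per kb, Ier3, a stress-induced regulator of cell survival, at 0.424 CPM per kb, and Atf3, a stress-induced leucine zipper factor, at 0.353 CPM per kb. The group means of neighbours in this order overlapped, as for Ier2 (16.5 to 25.6 CPM per kb) and Zfp36 (10.1 to 19.1 CPM per kb), other than at 2 steps. The lowest Junb group mean was 8.92 CPM per kb and the highest Jun group mean 6.56 CPM per kb, and the lowest Egr1 group mean was 1.23 CPM per kb and the highest Fos group mean 0.909 CPM per kb. Egr1, with group means from 1.23 to 10.7 CPM per kb, reached into the ranges of Junb and Zfp36.

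Among the AP-1 subunits and Atf3, Fos was the member whose Western diet groups did not overlap. Fos (chr12:85473890-85477273, GRCm38, plus strand) read 1.92, 1.80, 1.23, 2.16 and 1.06 CPM in Western diet VB mice, against 0.924, 0.648, 0.416, 1.00 and 0.220 CPM in Western diet vehicle mice. Control diet levels of Fos were 5.85, 1.32, 1.53, 0.753 and 1.23 CPM in control diet VB mice, against 0.723, 5.09, 0.591, 0.543 and 1.21 CPM in control diet vehicle mice. All 5 Western diet VB mice lay above all 5 Western diet vehicle mice, while on the control diet a single mouse in each group, VB mouse 1 and vehicle mouse 2, stood far above the others. The closest of the Western diet mice, VB mouse 5 (1.06 CPM) and vehicle mouse 4 (1.00 CPM), had 22 and 14 reads of Fos. The gap between them is small beside counting error.

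Jun (chr4:95049034-95052222, minus strand) showed 18.9, 18.4, 16.6, 36.2 and 14.4 CPM in Western diet VB mice, against 13.6, 26.7, 12.3, 28.2 and 12.9 CPM in Western diet vehicle mice. For Jun on the control diet the levels were 15.8, 17.3, 16.7, 13.8 and 14.99 CPM in control diet VB mice, against 10.7, 21.0, 8.76, 10.2 and 17.7 CPM in control diet vehicle mice. Every group of Jun overlapped its partner, and Western diet VB mouse 4 was the highest of all. The Junb levels (chr8:84974484-84978718, minus strand) were 36.5, 18.5, 34.7, 54.3 and 40.1 CPM in Western diet VB mice, against 35.7, 27.2, 14.7, 19.2 and 19.9 CPM in Western diet vehicle mice. Control diet levels of Junb were 64.1, 35.5, 26.9, 16.3 and 38.1 CPM in control diet VB mice, against 15.4, 23.3, 12.8, 26.1 and 25.2 CPM in control diet vehicle mice. The highest mouse of both VB groups lay above every vehicle mouse, but the lowest VB mouse of each diet lay inside the vehicle range.

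Atf3 (chr1:191170296-191218039, minus strand) gave 0.559, 0.901, 0.655, 1.08 and 0.721 CPM in Western diet VB mice, against 1.54, 0.697, 1.01, 0.358 and 1.26 CPM in Western diet vehicle mice. For the control diet mice, Atf3 gave 0.446, 0.480, 0.431, 0.800 and 0.731 CPM in control diet VB mice, against 0.568, 1.58, 0.591, 0.362 and 0.422 CPM in control diet vehicle mice. These levels correspond to a mean of 15.3 reads per mouse, and the groups overlapped on both diets. Control diet vehicle mouse 2 was again the highest of its group.

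Egr1 (chr18:34859823-34864984, plus strand) covered the widest range of the members. Its levels were 5.40, 2.86, 22.5, 8.18 and 21.0 CPM in Western diet VB mice, against 8.67, 5.93, 5.29, 4.29 and 3.46 CPM in Western diet vehicle mice. On the control diet Egr1 measured 98.6, 38.3, 14.7, 16.2 and 72.5 CPM in control diet VB mice, against 2.27, 21.3, 3.28, 14.4 and 40.3 CPM in control diet vehicle mice. The highest Egr1 level was 43.4-fold the lowest, and the groups overlapped on both diets. Western diet VB mice 3 and 5 stood above every Western diet vehicle mouse, whereas VB mice 1, 2 and 4 did not.

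Ier2 (chr8:84661331-84662852, minus strand) varied least. It measured 27.8, 24.7, 33.0, 41.5 and 31.9 CPM in Western diet VB mice, against 27.2, 22.1, 26.3, 28.5 and 21.5 CPM in Western diet vehicle mice. Control diet Ier2 measured 52.6, 40.8, 31.2, 27.4 and 43.0 CPM in control diet VB mice, against 23.8, 28.4, 28.7, 31.4 and 34.6 CPM in control diet vehicle mice. The highest of the 20 mice was 2.45-fold the lowest, and the groups overlapped on each diet.

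Ier3 (chr17:35821684-35822923, plus strand) was counted with a mean of 9.75 reads per mouse, so its values carry large counting error. It had 0.186, 0.265, 0.900, 0.566 and 0.240 CPM in Western diet VB mice, against 0.352, 0.448, 0.178, 0.572 and 0.714 CPM in Western diet vehicle mice. The control diet values of Ier3 were 0.580, 0.240, 0.431, 0.329 and 0.686 CPM in control diet VB mice, against 0.413, 0.945, 0.806, 0.317 and 0.422 CPM in control diet vehicle mice. No group of Ier3 stood apart from another.

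Btg2 (chr1:134075170-134079120, minus strand) reached 16.6, 14.52, 12.97, 17.3 and 11.6 CPM in Western diet VB mice, against 6.997, 11.3, 11.95, 13.4 and 12.03 CPM in Western diet vehicle mice. Over the control diet mice, Btg2 reached 20.3, 17.6, 8.47, 10.2 and 14.54 CPM in control diet VB mice, against 8.83, 20.1, 6.45, 8.37 and 12.02 CPM in control diet vehicle mice. On the control diet the highest VB and the highest vehicle mouse were nearly level, and the groups overlapped on both diets.

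Zfp36 (chr7:28376784-28380253, minus strand) came to 92.5, 64.0, 53.4, 79.4 and 41.8 CPM in Western diet VB mice, against 41.1, 42.5, 28.3, 35.8 and 27.8 CPM in Western diet vehicle mice. On the control diet Zfp36 came to 117, 54.3, 46.8, 50.2 and 59.4 CPM in control diet VB mice, against 39.8, 63.3, 20.1, 47.4 and 57.3 CPM in control diet vehicle mice. On the Western diet 4 of 5 VB mice lay above every vehicle mouse, while VB mouse 5 lay between the highest vehicle mice. Control diet VB mouse 1 stood far above the rest, and the groups overlapped.

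**Figure D1:**
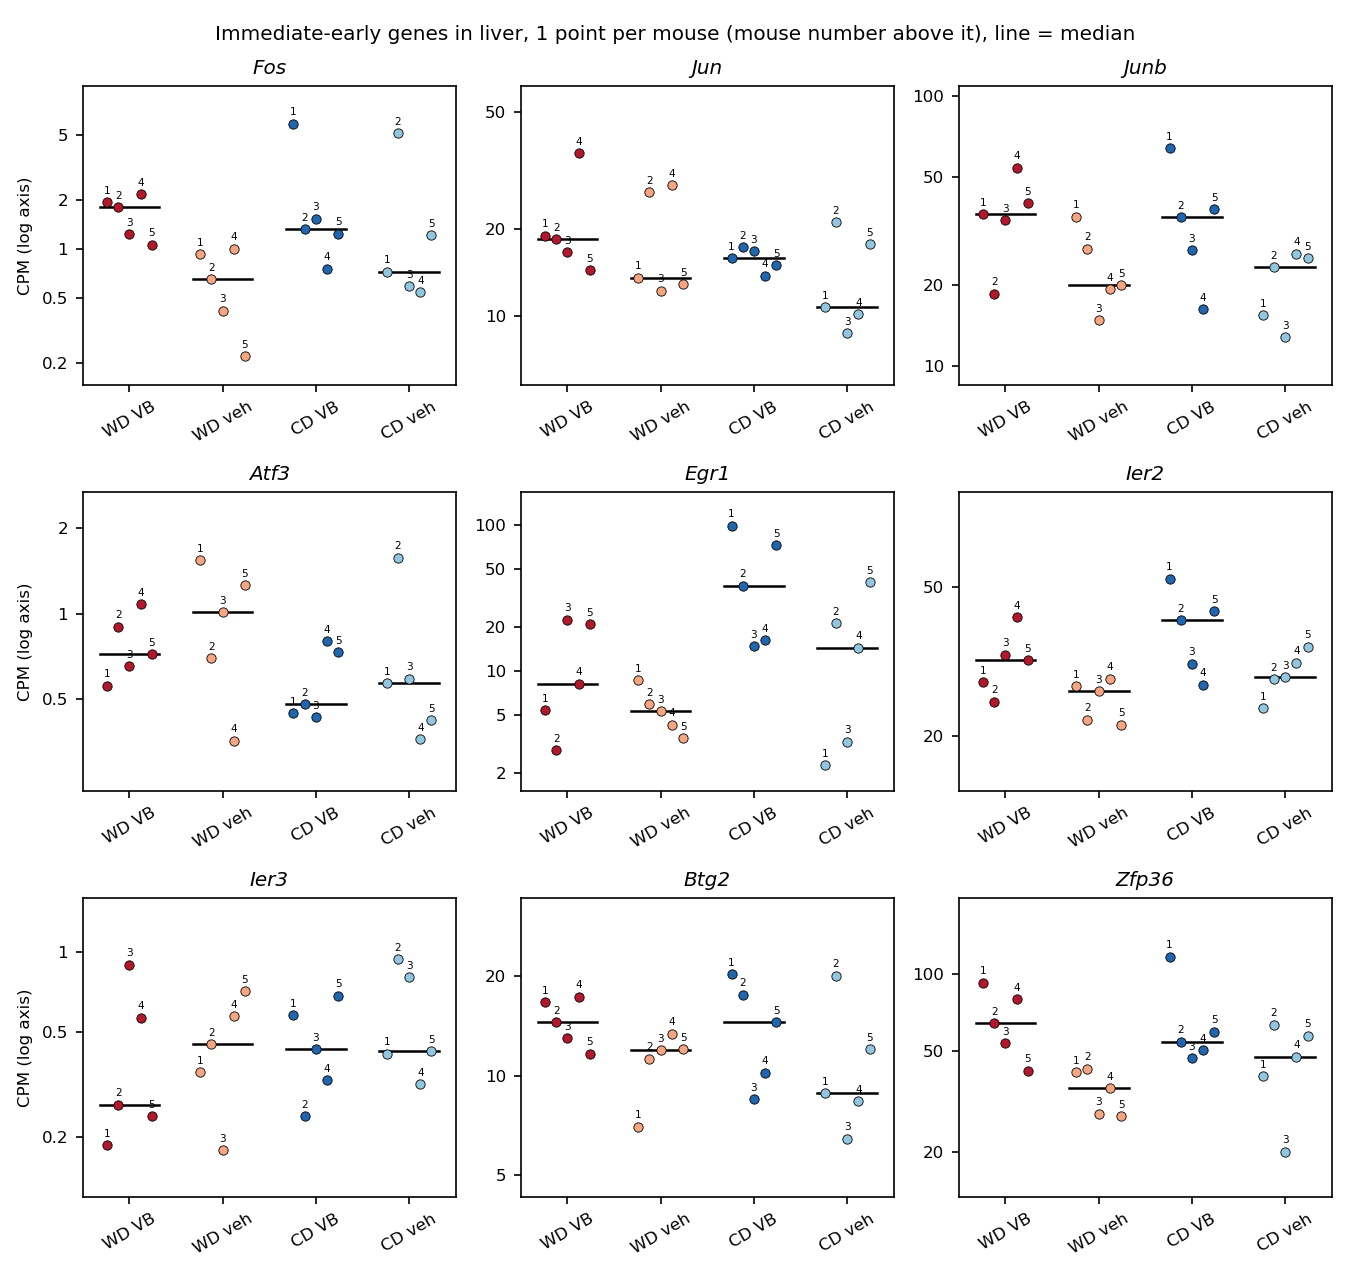
CPM on a log axis for the 9 members, 1 point per mouse with its number, in Western diet (WD) VB, WD vehicle (veh), control diet (CD) VB and CD vehicle mice; lines are medians of 5 mice. The Fos points of WD VB and WD vehicle mice do not overlap, and CD VB mouse 1 and CD vehicle mouse 2 are the highest of their groups for Fos (5.85 and 5.09 CPM).

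With VB on the Western diet, 7 of 9 members had a log2 change above 0, where 47.2% of all tested genes did, and the members' median was 0.40 against -0.02 over all tested genes. None of the 9 members passed edgeR's quasi-likelihood test at a Benjamini-Hochberg adjusted p under 0.05, which 7.19% of the tested genes did. At an unadjusted p under 0.05 there were 2 members (Zfp36 and Ier2), where 20.3% of all genes stood. This count depended on the fit. It was 6 of the 8 members tested with only the 2 Western diet groups in the fit, and 4 of 9 without control diet VB mouse 1. It was 3 with DESeq2, and 2 with limma-voom and with the replicate block. The shares of all genes at an unadjusted p under 0.05 were not counted in these other fits. DESeq2 called 1 member, Zfp36, where it called 1249 of the same 12616 genes, and limma-voom called 0 members, where it called 920 genes. Groups did not overlap for 1 member, Fos, against 5.56% of all tested genes.

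Zfp36 was 1.88-fold higher in Western diet VB mice than in Western diet vehicle mice, a log2 change of 0.91 (SE 0.30, 95% interval 0.29 to 1.54), with an adjusted p of 0.0728 by edgeR and 0.0133 by DESeq2. Its edgeR adjusted p was 0.0253 with only the 2 Western diet groups in the fit, 0.0287 without control diet VB mouse 1, 0.0308 without control diet vehicle mouse 3 and 0.16 without the mouse of mixed label. The log2 change itself was 0.76 to 1.28 over all alternatives, with adjusted p values from 0.0133 to 0.451. Fos had a log2 change of 1.34 (SE 0.65, interval -0.02 to 2.69) and an edgeR adjusted p of 0.255, and was 1.27 without the mouse of mixed label. Leaving out both control diet mice with high Fos, a choice made after seeing the data, gave Fos an adjusted p of 0.0294 and Zfp36 0.0241. Egr1 (1.11, SE 0.77), Junb (0.65, SE 0.34) and Ier2 (0.34, SE 0.16) lay above 0 without passing. Of the 9 intervals, those of Zfp36 and Ier2 lay above 0 and the other 7 held 0.

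With VB on the control diet, too, 7 of 9 members had a log2 change above 0, where 50.3% of all tested genes were above 0, with a median of 0.39 against 0.00 over all genes. The edgeR test called 0 members and 0.151% of all tested genes, and DESeq2 and limma-voom called 0 members. At an unadjusted p under 0.05 there were 3 members (Ier2, Junb and Egr1), against 10.7% of all genes, and no member's groups were free of overlap, against 3.88% of all genes. Egr1 was 2.95-fold higher in VB mice (log2 change 1.56, SE 0.72, interval 0.04 to 3.08, edgeR adjusted p 0.451), Junb 1.76-fold (0.82, SE 0.34, adjusted p 0.389) and Ier2 1.33-fold (0.41, SE 0.16, adjusted p 0.336). With the clock score as a covariate these log2 changes were 1.41 for Egr1, -0.03 for Junb and 0.03 for Ier2. The same covariate gave VB changes on the Western diet of 1.26 for Egr1, 1.41 for Junb, 0.70 for Ier2 and 1.28 for Zfp36, with edgeR adjusted p values of at least 0.416. The clock scores ran from -0.520 to 0.0862 in control diet VB mice and from -1.80 to -0.826 in control diet vehicle mice. On the Western diet they ran from -0.301 to 0.707 with VB and from 1.21 to 1.47 with vehicle. Without overlap on either diet, these fits cannot tell the clock score and VB apart.

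The VB effects of the 2 diets were compared by their difference, Western minus control. The test called 0 members by edgeR, DESeq2 and limma-voom, with 0 at an unadjusted p under 0.05 by edgeR, where 7.64% of all tested genes were called and 20.6% had an unadjusted p under 0.05. Of the members 4 of 9 were above 0, against 47.8% of all genes. Fos had the largest difference, 0.94 on the log2 scale (SE 0.87, interval -0.87 to 2.76), and it was -0.14 without control diet vehicle mouse 2 and 1.76 without control diet VB mouse 1. On the control diet alone the VB change of Fos was 0.39 (SE 0.58), and it was 1.47 and -0.42 without these mice in turn.

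For the Western diet against the control diet in VB mice, 5 of 9 members were above 0, against 50.4% of all tested genes, and the median was 0.01 against 0.00 over all genes. The edgeR test called 0 members, against 6.44% of all tested genes, DESeq2 and limma-voom called 0, and 1 member, Egr1, had an unadjusted p under 0.05, where 21.6% of all genes did. Egr1 averaged 11.97 ± 9.10 CPM in Western diet VB mice and 48.1 ± 36.7 CPM in control diet VB mice (SD, n = 5 each), a log2 change of -1.99 (SE 0.73, interval -3.53 to -0.44) with an edgeR adjusted p of 0.119. The groups of no member were free of overlap, against 9.43% of all genes.

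In vehicle mice, 3 of 9 members were above 0 on the Western diet, against 52.6% of all tested genes, with a median of -0.23 against 0.02 over all genes. The tests of edgeR, DESeq2 and limma-voom called 0 members, with 0 at an unadjusted p under 0.05 by edgeR and 2 by DESeq2, while edgeR called 16.5% of all tested genes and 28.7% had an unadjusted p under 0.05. Egr1 had a log2 change of -1.54 (SE 0.77, interval -3.17 to 0.08), which was -0.89 without control diet vehicle mouse 5 and -0.87 with limma-voom. Fos had one of -1.34 (SE 0.65, interval -2.69 to 0.02), which was -0.25 without control diet vehicle mouse 2 and -0.87 with limma-voom. The groups of no member were free of overlap, against 12.2% of all genes. The 4 comparisons of a pair of groups share groups with one another, so that their values are set side by side only.

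**Figure D2:**
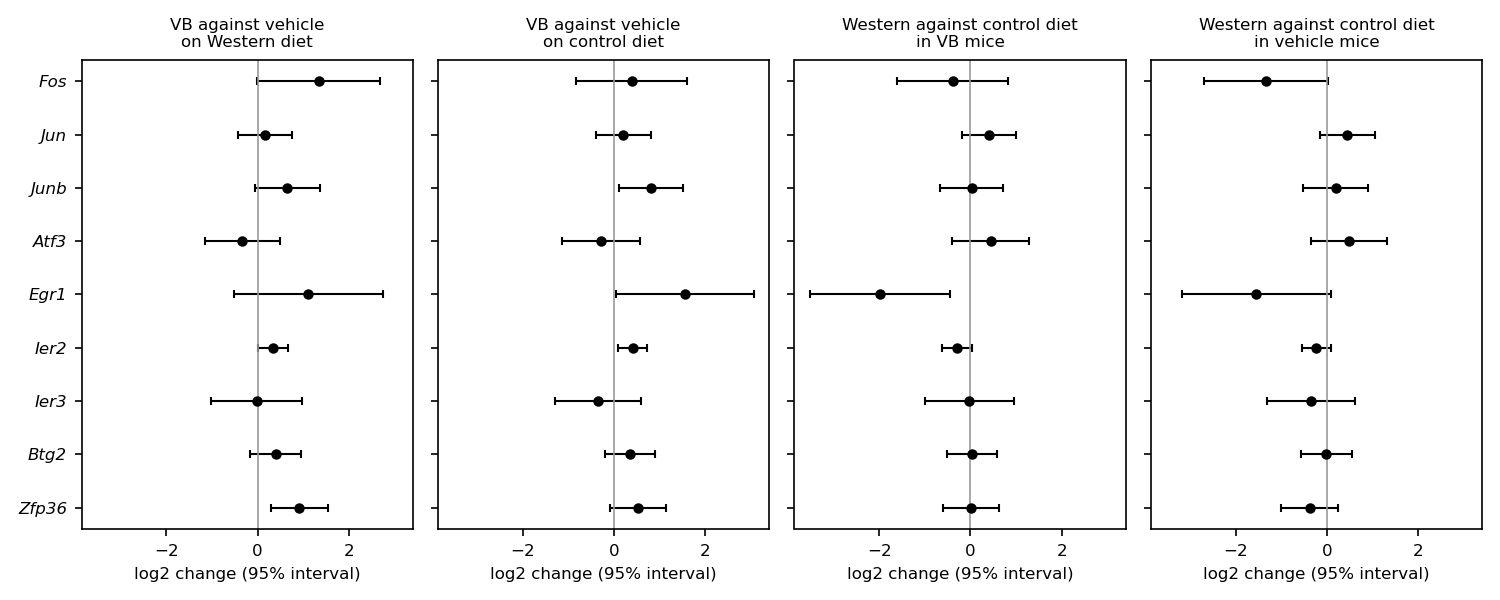
Log2 change of each member with its 95% interval in the 4 comparisons, VB against vehicle on the Western and control diets and Western against control diet in VB and vehicle mice. Most intervals hold 0, those of Zfp36 (VB on the Western diet, 0.29 to 1.54) and Egr1 (diet in VB mice, -3.53 to -0.44) among the exceptions.

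A list of 68 other immediate-early genes, of which 56 were tested, was read in the same fits. With VB on the Western diet 3 of 56 rose, against 3.33% of all tested genes, and 0 fell, against 3.86%. These were Crem, a cAMP-responsive repressor (log2 change 0.66, SE 0.13, edgeR adjusted p 0.00292), Noct, a clock-controlled regulator of metabolism (1.07, SE 0.25, adjusted p 0.0118), and Csrnp1, a nuclear protein of the early response (0.78, SE 0.23, adjusted p 0.0415). Dusp1, a phosphatase that switches off MAP kinases, had a log2 change of 1.13 (SE 0.34, adjusted p 0.0529). With VB on the control diet 0 of 56 passed in each direction by edgeR, where 0.0555% of all tested genes rose and 0.0951% fell. At an unadjusted p under 0.05 by edgeR there were 10 of 56, against 10.7% of all tested genes. The list's median log2 change was 0.08 with VB on the Western diet and 0.15 with VB on the control diet.

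In vehicle mice on the Western diet 5 of 56 rose, against 8.92% of all tested genes, and 3 fell, against 7.59%. Mcl1, a survival factor (0.43, SE 0.08, edgeR adjusted p 0.000373), and Mafk, a small Maf factor (0.54, SE 0.11, adjusted p 0.000981), were among those that rose. Btg1, a relative of Btg2 (-0.74, SE 0.12, adjusted p 0.000184), and Crem (-0.76, SE 0.13, adjusted p 0.000227) were among those that fell, as was Dusp1 (-1.30, SE 0.34, adjusted p 0.0133). In VB mice on the Western diet 0 of 56 rose, against 3.23% of all tested genes, and 2 fell, against 3.22%: Ctgf, a matricellular protein (-1.24, SE 0.35, adjusted p 0.0409), and Myc, a growth regulator (-2.45, SE 0.69, adjusted p 0.0413). For the difference of VB effects 2 of 56 were higher on the Western diet (Crem and Btg1), against 3.63% of all genes, and 1 was lower (Mafk), against 4.01%. The medians of the list were 0.03 for diet in vehicle mice, 0.01 for diet in VB mice and -0.10 for the difference.

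Of 25 kinases and factors upstream of these genes, edgeR called 1 with VB on the Western diet, Egfr, the epidermal growth factor receptor (0.75, SE 0.17, adjusted p 0.00842), named after its value was seen, where 7.19% of all tested genes were called. On the control diet it called 0 of the 25, with 4 at an unadjusted p under 0.05, against 10.7% of all genes. Of 12 heat shock genes, 6 rose with VB on the Western diet, against 3.33% of all tested genes, and 0 fell, against 3.86%. In Western diet vehicle mice relative to control diet vehicle mice 0 rose, against 8.92%, and 5 fell, against 7.59%. Hspa1a, an inducible chaperone, averaged 5.17 ± 1.63 CPM in Western diet VB mice and 0.607 ± 0.158 CPM in Western diet vehicle mice (SD, n = 5 each), with a log2 change of 3.05 (SE 0.39, edgeR adjusted p 0.000132). With VB on the control diet Hspa1a had a log2 change of -1.996 (SE 0.35, adjusted p 0.0165), the 1 heat shock gene called there. The heat shock list had a median log2 change of 0.55 with VB on the Western diet and -0.12 with VB on the control diet.

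The shares of all tested genes that rose and fell were 3.33% and 3.86% with VB on the Western diet, 0.0555% and 0.0951% with VB on the control diet, and 8.92% and 7.59% with the Western diet in vehicle mice. Beside these, of 20 clock genes, 4 rose and 4 fell with VB on the Western diet (median log2 change -0.34), 2 rose and 1 fell with VB on the control diet (median 0.48), and 11 rose and 5 fell with the Western diet in vehicle mice (median 0.54). Of 13 glucocorticoid targets, 3 rose and 2 fell with VB on the Western diet (median 0.22), none passed by edgeR with VB on the control diet, where 5 had an unadjusted p under 0.05, against 10.7% of all genes (median 0.35), and 3 rose and 5 fell with the Western diet in vehicle mice (median -0.63). Dusp1, Sgk1 and Per1 stand in both this list and that of the other immediate-early genes. The part of glucocorticoid responses in the members' values was not tested. That of heat shock was tested only through Hspa1a, among the relations between mice given below.

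The members varied widely between mice of a group. The standard deviation of log2 CPM, pooled over the 4 groups, was 1.27 for Egr1 (95% interval 0.94 to 1.93) and 0.92 for Fos (0.69 to 1.40), against a median of 0.26 over all tested genes. These lie at percentiles 99.3 and 97.9 of all tested genes. Ier3 (0.61), Atf3 (0.57), Junb (0.57), Zfp36 (0.50), Jun (0.48) and Btg2 (0.46) followed, at percentiles from 79.9 to 89.6. Ier2 had 0.27, at percentile 53.9.

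All 9 members lay above the median of all tested genes, 8 above the upper quartile of 0.41 (a mark chosen after seeing the values) and 2 above the 90th percentile of 0.62. Counting alone gives an SD near 0.46 for Ier3, 0.37 for Atf3 and 0.26 for Fos, and at most 0.09 for the other members. The biological coefficient of variation in edgeR was 76.6% for Egr1 and 63.0% for Fos, where the trend for genes of like abundance was 15.3% and 32.1%. For Atf3 and Ier3 it was 36.6% and 39.7%, beside trend values of 37.5% and 39.8%, so those members varied about as much as other genes of their abundance. Within groups, Egr1 had an SD of 1.26 in Western diet VB mice, 0.49 in Western diet vehicle mice, 1.23 in control diet VB mice and 1.75 in control diet vehicle mice.

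**Figure D3:**
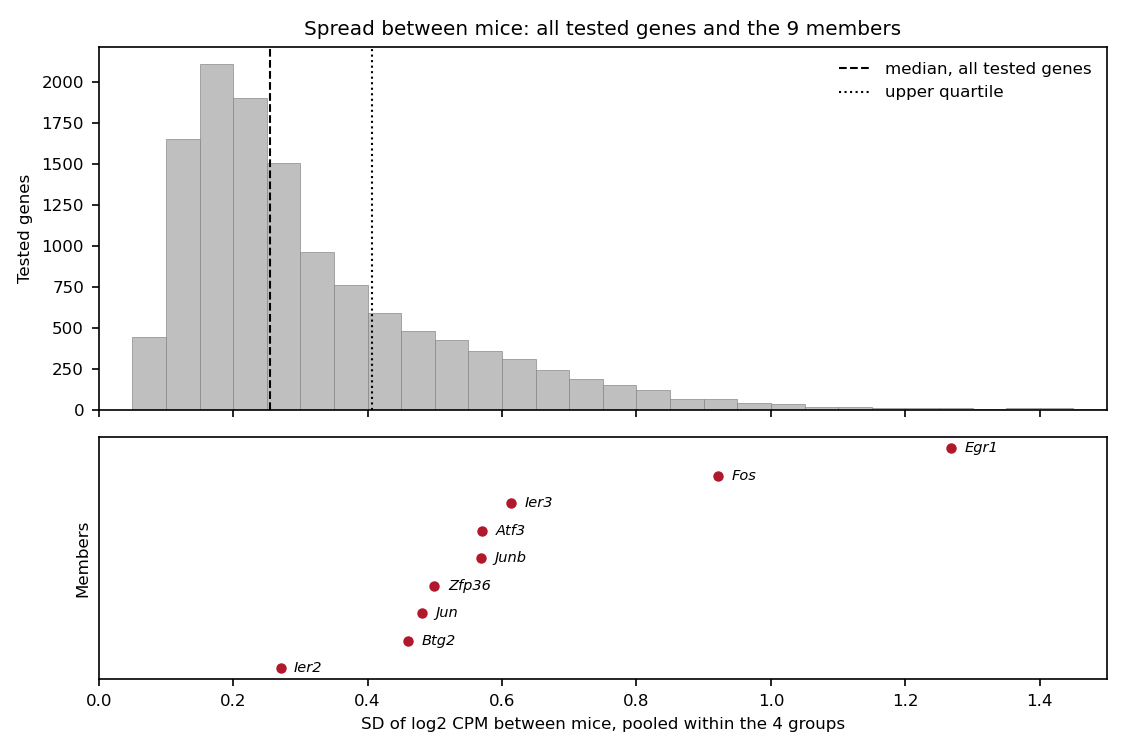
Top, the number of tested genes by SD of log2 CPM between mice, pooled within the 4 groups; bottom, the same SD for each member. Egr1 (1.27) and Fos (0.92) lie in the right tail and Ier2 (0.27) lies near the median of all genes (0.26).

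The same mice were high in several members. Western diet VB mouse 4, control diet VB mouse 1 and control diet vehicle mouse 2 were each the highest of their group in 6 of 9 members, and none of them was the lowest in any. Western diet vehicle mouse 4 was the highest in 4 and the lowest in 1. That mouse had the lowest Kupffer cell (118 CPM) marker sum of its group. Its bile duct (73.0 CPM) and hepatocyte (55636 CPM) marker sums were the highest of the group. Mitochondrial genes held 3.33% of counts in Western diet VB mouse 4, the highest share of its group, 2.47% in control diet VB mouse 1 and 2.37% in control diet vehicle mouse 2, inside the range of their groups. Western diet VB mouse 4 also had the lowest Kupffer cell (144 CPM) and bile duct (23.4 CPM) marker sums of its group. Endothelial markers summed to 68.0 CPM in Western diet VB mouse 4 and 58.9 CPM in mouse 1, the mouse with the highest Zfp36 of that group, and to 98.0 to 134 CPM in the other 3. Stellate cell and fibroblast markers summed to 98.7 CPM in mouse 4 and 73.0 CPM in mouse 1, and to 141 to 200 CPM in the other 3. The part of these cell types in the members' values was tested only for the Kupffer cell sum, among the relations that follow. The part of handling or the hour of collection in these values was not tested. Control diet VB mice 3 and 4 and control diet vehicle mouse 3 were each the lowest of their group in 4, as were Western diet VB mouse 5 and Western diet vehicle mouse 5.

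**Figure D4:**
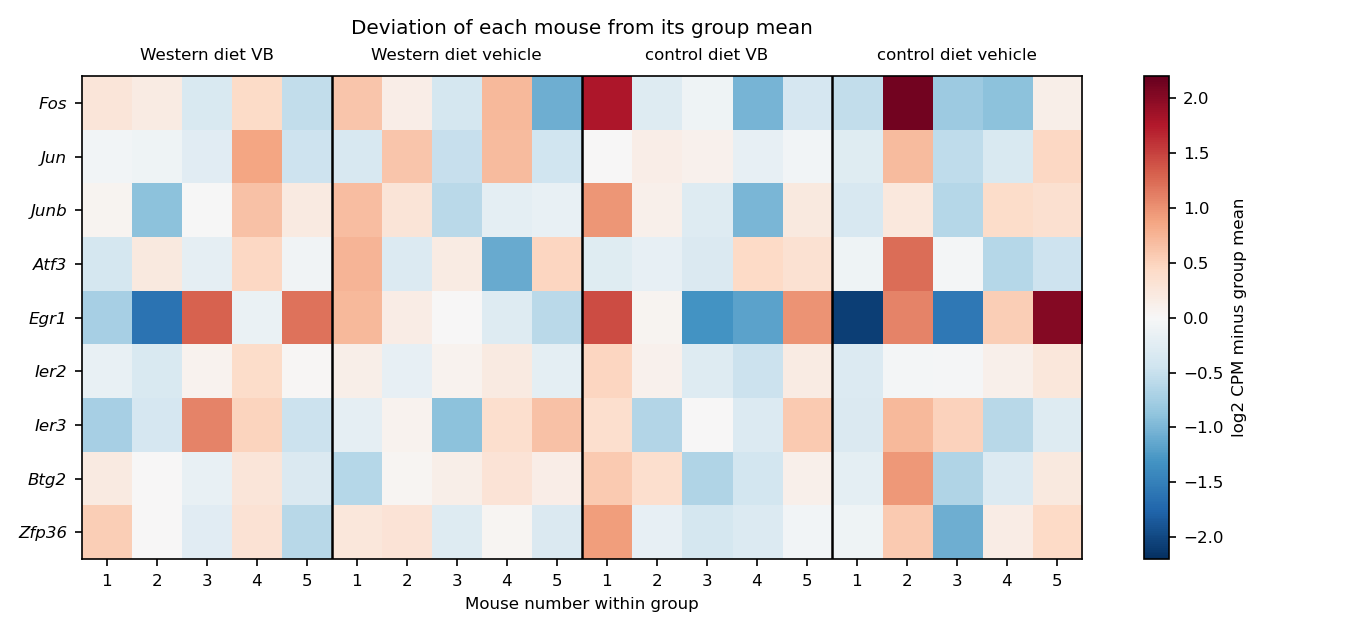
Log2 CPM of each member minus the mean of its group, for the 20 mice in columns by group and number; red is above the group mean. Control diet VB mouse 1 and control diet vehicle mouse 2 are red in most rows. The row of Egr1 varies most, and the largest single deviation is that of Fos in control diet vehicle mouse 2 (2.115).

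Deviations from the group mean were then compared between members over the 20 mice, for 36 pairs. Pearson's r was above 0 in 33 pairs, with a median of 0.343, and 9 pairs passed a two-sided permutation test (100000 permutations of mice within groups, Benjamini-Hochberg adjusted over the 36 pairs) by both Pearson's r and Spearman's rho. The closest was Junb with Ier2 (r = 0.746, permutation p 0.00167, adjusted 0.0136; rho = 0.704, permutation p 0.00281, adjusted 0.0183). Fos with Zfp36 followed (r = 0.742, permutation p 0.00051, adjusted 0.0124; rho = 0.752, permutation p 0.00023, adjusted 0.00828), then Junb with Egr1 (r = 0.719, permutation p 0.00069, adjusted 0.0124; rho = 0.735, permutation p 0.00099, adjusted 0.0136). Egr1 with Ier2 had r = 0.695 and rho = 0.657.

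The other pairs that passed were Btg2 with Zfp36 (r = 0.648), Junb with Zfp36 (0.637), Fos with Jun (0.608), Jun with Btg2 (0.587) and Jun with Zfp36 (0.562). Without the 2 mice farthest from the median of the first gene of each pair, r was at least 0.464 in all 9. Junb with Egr1, Junb with Ier2 and Egr1 with Ier2 passed in all 24 alternatives tried. Btg2 with Zfp36 did not pass in 16 of the 24 and Jun with Zfp36 in 13, nor did Junb with Zfp36 in 6, Jun with Btg2 in 4, Fos with Jun in 2 and Fos with Zfp36 in 1. Without control diet vehicle mouse 2 the number of pairs passing was 4, and without control diet VB mouse 1 or control diet vehicle mouse 1 or 3 it was 5. The 15 pairs with Atf3 or Ier3 had r between -0.162 and 0.281 and none passed.

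Within the diets, the median r over the 36 pairs was 0.161 in the 10 Western diet mice and 0.563 in the 10 control diet mice. For Junb with Ier2 r was 0.542 in Western diet mice and 0.888 in control diet mice, and for Fos with Zfp36 it was 0.751 in Western diet mice and 0.742 in control diet mice. For Egr1 with Zfp36 it was -0.383 in Western diet mice and 0.772 in control diet mice. Whether r differed between the diets was not tested. Of 54 relations between a member and a technical measure (total count, mitochondrial share, clock score, red blood cell and Kupffer cell markers, and Hspa1a), added after seeing the data, 0 passed by either measure, with r from -0.577 to 0.497 and adjusted permutation p values of at least 0.622 by Pearson's r and 0.595 by Spearman's rho.

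**Figure D5:**
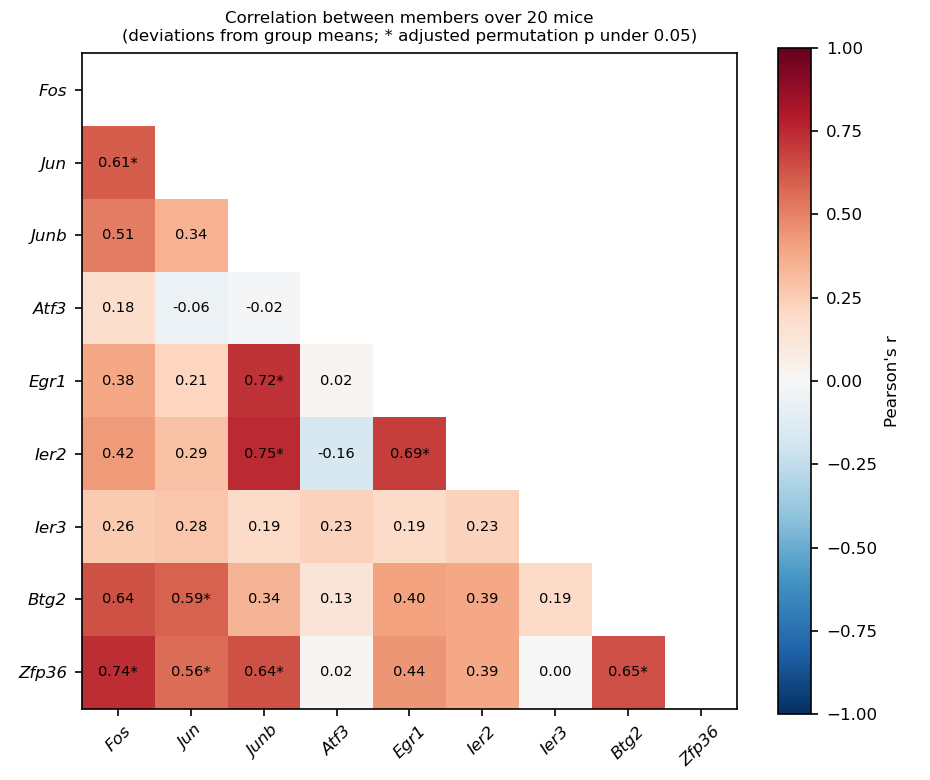
Pearson's r between each pair of members over 20 mice, from deviations of log2 CPM from group means; stars mark an adjusted permutation p under 0.05. Junb, Egr1 and Ier2 form 1 block (0.695 to 0.746), Fos, Jun, Btg2 and Zfp36 are linked by most of the other stars, and Atf3 and Ier3 have none.

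Among 11197 other genes with a mean of at least 1 CPM, those whose deviations ran closest to the mean of the scaled deviations of the 9 members were Amigo2 (r = 0.869 over the 20 mice), Ell2, an elongation factor of RNA polymerase II (0.805), and Gdf15, a stress-induced secreted factor (0.765). Pawr, Dazap2, Ciart, Pck1, Brd2, Fam20a and N4bp2l1 made up the rest of the 10, down to 0.701. For Fos alone the closest were Gdf15 (0.770), Tnfrsf12a (0.732) and Cpne3 (0.728), and Nfkbia, the NF-kappa-B inhibitor of the other immediate-early list, was among the 10 closest (0.70). These are the extremes of a ranking over many genes that share the same 20 libraries, and no p is given.

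The promoters of Fos, Zfp36, Junb and Btg2 are shown. Fos, Junb and Btg2 each passed with Zfp36 in the pairs above, but not with one another. Jun also passed with Zfp36, Fos and Btg2, and its promoter, not shown, held none of the motifs put in capitals. The promoters shown therefore do not stand for all members that deviated together. RefSeq gave promoters (GRCm38.p6, from 250 bases before to 50 after the annotated start, on the strand of the gene; the starts of Zfp36 and Atf3 lie well inside the GENCODE spans given above and those of Junb and Btg2 just outside theirs) for 7 of the 9 members, without Egr1 and Ier2. They lie at chr12:85473640-85473939 (Fos, plus strand), chr7:28379179-28379478 (Zfp36, minus strand), chr8:84978699-84978998 (Junb, minus strand) and chr1:134079106-134079405 (Btg2, minus strand). Capitals mark the CArG box (bound by serum response factor), the cAMP response element TGACGTCA, its core TGACG, the EGR motif GCGNGGGCG and the letters TATAAA of the TATA box, each searched on both strands.
Fos: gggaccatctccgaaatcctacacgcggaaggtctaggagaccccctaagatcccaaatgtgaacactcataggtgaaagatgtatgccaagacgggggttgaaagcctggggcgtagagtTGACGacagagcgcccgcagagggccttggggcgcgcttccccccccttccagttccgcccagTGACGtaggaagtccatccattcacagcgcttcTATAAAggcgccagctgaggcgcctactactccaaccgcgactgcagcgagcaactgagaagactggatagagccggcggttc
Zfp36: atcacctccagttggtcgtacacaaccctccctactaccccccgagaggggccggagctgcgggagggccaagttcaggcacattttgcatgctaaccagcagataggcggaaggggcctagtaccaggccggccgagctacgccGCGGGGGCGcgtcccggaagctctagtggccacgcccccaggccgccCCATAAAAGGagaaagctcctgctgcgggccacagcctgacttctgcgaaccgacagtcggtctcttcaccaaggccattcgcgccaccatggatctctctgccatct
Junb: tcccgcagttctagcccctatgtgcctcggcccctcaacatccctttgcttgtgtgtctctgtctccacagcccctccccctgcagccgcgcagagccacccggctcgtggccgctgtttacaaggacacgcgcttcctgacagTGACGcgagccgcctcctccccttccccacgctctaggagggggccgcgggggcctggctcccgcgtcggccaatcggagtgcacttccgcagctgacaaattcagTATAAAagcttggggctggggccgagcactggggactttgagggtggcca
Btg2: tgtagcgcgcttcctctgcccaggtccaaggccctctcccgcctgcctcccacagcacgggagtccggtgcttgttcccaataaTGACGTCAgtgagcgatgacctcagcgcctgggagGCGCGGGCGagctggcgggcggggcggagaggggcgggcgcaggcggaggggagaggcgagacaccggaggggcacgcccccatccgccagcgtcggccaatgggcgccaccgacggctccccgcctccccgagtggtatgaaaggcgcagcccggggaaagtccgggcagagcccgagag

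A CArG box stood in 1 of the 7 promoters, Zfp36, and in 1.63% of all 32851 RefSeq promoters of the same length. The full cAMP response element stood in Btg2 alone of the 7, against 1.79% of all promoters, and its core, which the full element contains, in 4 of 7 (Fos, Junb, Btg2 and Atf3), against 20.8%. The EGR motif stood in 2 of 7 (Zfp36 and Btg2), against 5.55%, and the letters TATAAA in 2 of 7, against 13.6%. In Fos these letters lay at bases -33 to -28 from the start, and in Junb at bases 1 to 6, at the annotated start itself. Of the motifs not in capitals, the SP1 motif GGGCGG stood in 6 of 7, against 35.7% of all promoters, and the heat shock motif GAANNTTC in Jun alone, against 7.86%. The AP-1 motif TGANTCA with C or G as its N stood in 0 of 7, against 5.2%. With 7 promoters these shares are a description of the letters in these windows and of nothing bound there.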

How the data were processed

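Liver RNA-seq of 20 mice was deposited as raw read counts per gene in 40 lane files, which the authors made from TruSeq libraries, per the labels' protocols. The submitters' processing notes name GRCm38 as genome build. Aligner, counter, annotation and strand setting: not given in the sources used here. The 2 lanes of each mouse were summed, since they differed far less than mice did (chi-square per degree of freedom 1.33 to 1.49, against at least 17.7 between mice of a group). The largest lane difference of a member in any mouse was 3.47 SDs of a binomial split of its reads. No value column was left unmapped. Counts were analysed in R 4.3.3 with edgeR 4.0.16: filterByExpr (minimum count 10, total 15), TMM scaling, and 1 robust quasi-likelihood fit of all 4 groups, with Benjamini-Hochberg adjustment over 12616 genes holding 99.95% of counts. Log2 CPM for spread and correlation used a prior count of 2. Alternatives used DESeq2 1.42.0, limma 3.58.1, other scalings and filters, single lanes, a replicate block, a clock covariate and leaving out each mouse. The members, lists and naming rule (all members; of the other immediate-early list, up to 4 called genes with the smallest p in each comparison, and Dusp1, Nr4a1, Per1, Socs3, Myc, Hspa1a, Dbp and Arntl where a result turns on them) were chosen with earlier results of these data known. Nothing says whether mice shared a cage or litter. Overlapping or near-identical genes could share reads. Intervals cover the spread between mice. Gene positions are from GENCODE M21.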

Additional observations from a re-analysis of the deposited data

Results flagged for a closer look

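In 5 of 36 groups (9 members in 4 groups of 5 mice) the highest mouse stood apart by Dixon's criterion. Its gap to the next mouse exceeded 0.71 of the group's range. The criterion was applied to CPM and not to log2 CPM, on which such gaps are smaller beside the range. Its chance rate of about 1 in 20 holds for independent groups of normally distributed values. The members deviated together, so 5 of 36 cannot be set against that rate. Fos read 5.85 CPM in control diet VB mouse 1, where the next mouse had 1.53 CPM. In control diet vehicle mouse 2, Fos read 5.09 CPM, where the next mouse had 1.21 CPM. Zfp36 reached 117 CPM in control diet VB mouse 1, against 59.4 CPM in the next mouse. Atf3 was 1.58 CPM in control diet vehicle mouse 2, with 0.591 CPM in the next. Jun came to 36.2 CPM in Western diet VB mouse 4, with 18.9 CPM in the next. The 5 values come from 3 mice, the same that were the highest of their group in 6 of 9 members.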

How the results depend on the processing

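Of the 5 counts of members called, 4 stayed at 0 under every alternative. With VB on the Western diet the count was 1 (Zfp36) with DESeq2, with only the groups compared in the fit and with the replicate block, 0 to 1 with 1 mouse left out, and 2 (Fos and Zfp36) without both high control diet mice (VB mouse 1 and vehicle mouse 2), a setting chosen after seeing the data. Deviations of same-numbered mice correlated at -0.0652 to 0.378, and 7 of 30 such pairs were above 0.1. Mice of different numbers were not correlated for comparison, so these values cannot tell whether the numbers pair the mice. The number of member pairs passing was 4 in lane 1 alone and 4 to 10 with 1 mouse left out, against 9. The members above the upper quartile of the spread, a threshold chosen after seeing the values, numbered 7 to 8. Over all tested genes, 0 to 164 were called with VB on the control diet, 2 to 1249 with VB on the Western diet, 31 to 2383 for diet in vehicle mice, 541 to 1397 for diet in VB mice and 0 to 1702 for the difference; the low ends of 0, 2, 31 and 0 came with the clock score as a covariate, which differs between the groups. Of 1403 recomputed log2 changes 87 changed sign, 2 of them from more than 1 SE from 0 (Fos, difference of VB effects; Junb, VB on control diet), and in the other cases the cause was not tested. With the clock score as a covariate, the log2 change of the other sign was 0.52 for Atf3 (VB on control diet), -0.011 for Btg2 (diet in VB mice), 0.68 for Ier2 (the difference of VB effects), 0.31 for Ier3 (VB on Western diet), 0.19 for Jun (the difference of VB effects), -0.028 for Junb (VB on control diet), -0.23 for Junb (diet in VB mice), -1.67 for Junb (diet in vehicle mice), 1.44 for Junb (the difference of VB effects) and -0.13 for Zfp36 (diet in VB mice). Without both high control diet mice, the log2 change of the other sign was 0.32 for Atf3 (VB on control diet), 0.31 for Btg2 (diet in vehicle mice), -0.11 for Btg2 (the difference of VB effects), 0.42 for Fos (diet in VB mice), 0.076 for Ier2 (the difference of VB effects), 0.076 for Ier3 (diet in VB mice) and 0.10 for Junb (the difference of VB effects). In lane 1 alone, the log2 change of the other sign was 0.036 for Atf3 (the difference of VB effects), 0.0020 for Btg2 (diet in vehicle mice) and -0.044 for Junb (diet in VB mice). In lane 1 alone, r of the other sign was 0.10 for Atf3 and Ier2, -0.0050 for Egr1 and Ier3, -0.049 for Ier3 and Zfp36 and 0.12 for Junb and Atf3. In lane 2 alone, the log2 change of the other sign was 0.012 for Jun (the difference of VB effects). In lane 2 alone, r of the other sign was -0.0015 for Atf3 and Btg2, -0.049 for Atf3 and Egr1, -0.054 for Atf3 and Zfp36 and 0.072 for Jun and Atf3. With limma-voom, the log2 change of the other sign was 0.055 for Btg2 (diet in vehicle mice). With the replicate block, the log2 change of the other sign was 0.066 for Btg2 (diet in vehicle mice). Without a filter on low counts, the log2 change of the other sign was -0.0045 for Zfp36 (diet in VB mice). Leaving out each mouse in turn, the log2 change ran from -0.45 to 0.25 for Atf3 (VB on control diet), from -0.58 to 0.18 for Atf3 (the difference of VB effects), from -0.10 to 0.20 for Btg2 (diet in VB mice), from -0.15 to 0.31 for Btg2 (diet in vehicle mice), from -0.27 to 0.21 for Btg2 (the difference of VB effects) and from -0.42 to 1.47 for Fos (VB on control diet). With 1 mouse left out, the log2 change ran from -0.60 to 0.42 for Fos (diet in VB mice), from -0.14 to 1.76 for Fos (the difference of VB effects), from -0.18 to 0.065 for Ier2 (the difference of VB effects), from -0.50 to 0.20 for Ier3 (VB on Western diet), from -0.50 to 0.17 for Ier3 (diet in VB mice) and from -0.15 to 0.56 for Ier3 (the difference of VB effects). Over the same omissions, the log2 change ran from -0.13 to 0.35 for Jun (VB on Western diet), from -0.33 to 0.14 for Jun (the difference of VB effects), from -0.16 to 0.33 for Junb (diet in VB mice), from -0.017 to 0.32 for Junb (diet in vehicle mice), from -0.35 to 0.14 for Junb (the difference of VB effects) and from -0.14 to 0.33 for Zfp36 (diet in VB mice). Between members, with 1 mouse left out, the r ran from -0.34 to 0.31 for Atf3 and Btg2, from -0.16 to 0.14 for Atf3 and Egr1, from -0.23 to 0.11 for Atf3 and Zfp36, from -0.34 to 0.36 for Fos and Atf3, from -0.0015 to 0.32 for Ier3 and Btg2 and from -0.12 to 0.18 for Ier3 and Zfp36. Also with 1 mouse left out, the r ran from -0.42 to 0.20 for Jun and Atf3 and from -0.16 to 0.10 for Junb and Atf3. Depth limits Ier3 and Atf3: Ier3 fell under the filter in lane 1 alone, both did in lane 2 alone, and with 5 mice a group the intervals of Egr1 and Fos span more than 2 log2 units.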
